A study of Mus musculus with 3 samples.

Results

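The genes described here are those whose symbols begin with Srsf, Hnrnp, Snrp or Sf3, measured in cultured mouse macrophages with and without adiponectin. They were found by mapping each non-control probe's accession to a RefSeq symbol, which gave 51 genes and 85 probes of 20660 named genes and 55681 probes. By prefix there were 10 Srsf genes (19 probes), 20 Hnrnp genes (35 probes), 12 Snrp genes (21 probes) and 9 Sf3 genes (10 probes). Of the 51 genes, 49 had a probe that passed the brightness filter. The other 2, Snrpn, the imprinted relative of SmB made mainly in neurons, and Srsf12, had no reading well above background on any array.

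The cells were bone marrow-derived macrophages of the mouse strain C57BL/6J, grown out of marrow in medium with 30% supernatant of L929 fibroblasts, which secrete the macrophage growth factor CSF-1. After 24 h in 0.1% serum they were left untreated or received adiponectin, a protein hormone of fat tissue, at 12 µg/ml for 18 h (the labels' RNA extraction text writes mg/ml; the unit used is that of the treatment text). Each of 3 two-colour Agilent arrays held 1 treated and 1 untreated RNA, 6 RNA samples in all, and the labels call the arrays biological replicates. Dyes were swapped on 1 array: the RNA of treated cells carried Cy5 there (replicate 2) and Cy3 elsewhere, so dye effects of single genes do not fully cancel in the mean.

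Pre-mRNA splicing removes introns in the spliceosome, a particle assembled anew on each intron from small nuclear ribonucleoproteins (snRNPs). The Snrp genes encode proteins of the snRNPs, among them the ring of Sm proteins, and the Sf3 genes encode the SF3A and SF3B complexes, with which the U2 snRNP holds the branch point of the intron. SR proteins (the Srsf genes) bind exons and recruit the spliceosome, while hnRNP proteins (the Hnrnp genes) coat nascent RNA and often oppose them, so that the balance of both shapes alternative splicing.

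Values are log2 ratios of treated over untreated, so that 1 is a doubling and a negative ratio is a lower level with adiponectin. Each gene is shown by its brightest probe. Every standard error (SE) is limma's moderated one, which borrows from all genes and differs from the spread seen between arrays. A gene was called at a Benjamini-Hochberg adjusted p under 0.05 in limma over all 13179 genes tested. Of those, 24.5% were called higher and 46.1% lower, and their median ratio was -0.17. Only 3 arrays limit the precision, and p-values reflect the spread between these arrays, moderated as the SE is. The labels do not say whether the macrophages came from separate mice. The 3 arrays correlated with each other at r = 0.943 to 0.968 across the tested genes, and no gene had the same ratio on 2 arrays. In bulk RNA, fewer cells of a type and less RNA per cell cannot be told apart.

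All 7 macrophage markers measured were well above background in both channels of every array. Of these, 6 were called lower, among them Fcgr1 (-2.05), Mertk (-2.05) and Csf1r (-1.79), and Cd14 was called higher (0.97). Also well above background were 5 of 5 neutrophil markers on the array (Camp, Elane, Mpo, S100a8 and S100a9), of which 3 were called higher and 1 lower. Their summed level was 14.56 to 14.76 (log2) untreated and 14.68 to 15.33 treated, against 18.24 to 18.36 and 17.24 to 17.55 for the macrophage markers. Of the other lists, 1 of 5 B cell, 2 of 5 T cell, 2 of 4 dendritic cell, 1 of 4 mast cell, 2 of 5 fibroblast and 3 of 3 endothelial markers were well above background on all arrays in untreated RNA, and 0 of 3 NK cell and 0 of 4 erythroid markers were. Those of them called were Cd79b (-1.69) and Kit (-0.79), lower, and Zbtb46 (1.51), Kdr (1.07), Cd3e (0.96), Dcn (0.79) and Col1a2 (0.35), higher. The part of other cells in the results was not tested.

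Across the 49 measured genes, 8 were called higher (16.3%), 24 lower (49.0%) and 17 neither way, with a median ratio of -0.25. The share called lower was near that of all genes (46.1%), and the share called higher was below it (24.5%), with no test of either difference. Changes of at least 2-fold were called for 10 genes, 3 higher and 7 lower, against 896 higher and 1663 lower of all 13179 genes. The genes that were higher were Hnrnpll, Hnrnpdl, Hnrnpc, Srsf2, Sf3a1, Snrpd2, Snrpf and Srsf4. These rises rest on the loess normalization: with each array centred on its median instead, the median ratio of all tested genes moved from -0.17 to -1.03, Hnrnpll alone stayed above 0 (0.41) and no gene in the data passed the threshold, although 5314 had an unadjusted p under 0.05.

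**Figure D1:**
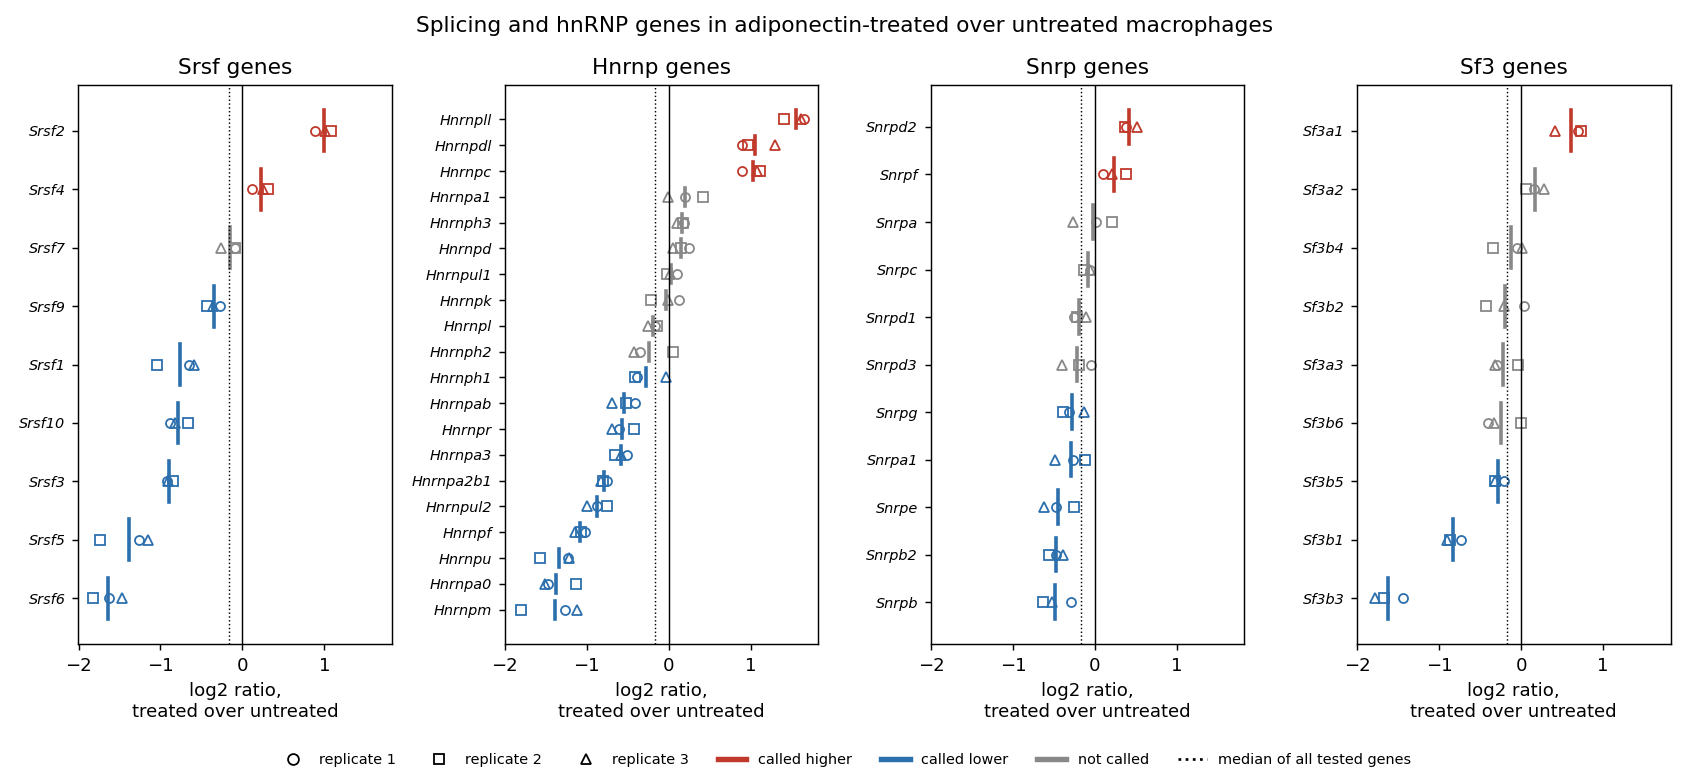
Log2 ratio of treated over untreated (x axis) for each measured Srsf, Hnrnp, Snrp and Sf3 gene, with 1 symbol per array, a bar at the mean and the median of all tested genes (-0.17) as a dotted line. The Srsf genes reach from -1.64 (Srsf6) to 0.99 (Srsf2), while the Snrp genes lie between -0.48 and 0.42. With median centring in place of loess all ratios but that of Hnrnpll were at or below 0.

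Among the SR protein genes, 6 of 9 were called lower (66.7%), 2 higher (22.2%) and 1 neither way. The shares of all tested genes were 46.1% lower and 24.5% higher. The median ratio of the SR protein genes was -0.76 (-0.65, -0.66 and -0.59 on replicates 1, 2 and 3). Srsf6 and Srsf5, encoding SRp55 and SRp40, were more than 2-fold lower, whereas Srsf2, encoding SC35, was 1.99-fold higher. All 9 genes had the same sign on all 3 arrays, as did 10825 of all 13179 genes. In none of the 9 did the treated levels overlap the untreated ones, as was the case for 9962 of the 13179.

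Srsf6 had normalized log2 intensities of 10.45, 10.64 and 10.47 in the untreated RNA of replicates 1, 2 and 3 and of 8.83, 8.81 and 8.99 in the treated RNA. Every treated value lay well below every untreated one. The ratios of -1.62, -1.83 and -1.47 gave -1.64 ± 0.094 (SE, n = 3), a 3.12-fold lower level (limma, adjusted p = 1.4e-06). A second, dimmer probe for Srsf6 gave -1.02 and was also called lower.

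Srsf5 fell from 12.28, 12.54 and 12.32 untreated to 11.02, 10.81 and 11.17 treated. The groups did not overlap, but replicate 2, the array with swapped dyes, had the largest ratio (-1.74, against -1.26 and -1.15). The mean was -1.38 ± 0.12 (SE, n = 3; limma, adjusted p = 1.35e-05). A dye term estimated a dye coefficient of -0.27 for Srsf5, with an adjusted p of 0.259 in limma.

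Srsf2 ran the other way, from 10.34, 10.27 and 10.26 untreated to 11.22, 11.35 and 11.27 treated, with no overlap. Its ratio was 0.99 ± 0.084 (SE, n = 3; limma, adjusted p = 1.19e-05). Its second, dimmer probe gave 0.40 and was called higher as well. With median centring the ratio of Srsf2 was -0.19.

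Srsf3 encodes the smallest SR protein, which also links splicing to mRNA export. Its ratios were -0.92, -0.84 and -0.91, and all 3 of its probes were called lower (-1.08, -0.89 and -0.75), with a fitted ratio of -0.89 ± 0.080 for the brightest (SE, n = 3; limma, adjusted p = 1.69e-05). Srsf10, whose product represses splicing when it loses its phosphates, had ratios of -0.88, -0.66 and -0.82 and a fitted ratio of -0.79 ± 0.085 (SE, n = 3; limma, adjusted p = 5.15e-05). Its dimmer probes gave -0.56, called lower, and -0.03, not called. Srsf1, the founding member of the family, was lower at -0.76, with its 3 probes between -0.78 and -0.69.

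Smaller values stood at the other end of the family. Srsf9 was at -0.35 (limma, adjusted p = 0.00468) and lost its call with a normexp offset of 0 (-0.26) and centred on the tested genes (-0.18). Srsf4, encoding SRp75, had ratios of 0.12, 0.31 and 0.25 (mean 0.23 ± 0.084, SE, n = 3; limma, adjusted p = 0.0381), a call that was lost when any 1 array was left out (0.19 to 0.28) and a sign that turned with median centring (-0.95). Srsf7, which binds export factors much as Srsf3 does, was nearest to 0, with ratios of -0.09, -0.09 and -0.27 and a mean of -0.15 that was not called. Its second probe, however, gave -0.58 and was called lower.

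The promoter windows of the 3 SR protein genes with the largest changes are shown, since these members moved in opposite directions. Each window runs from 250 bases before to 50 after the annotated start (RefSeq, GRCm38.p6), 5′ to 3′ on the gene's strand. Capitals mark matches on either strand to 5 motifs: TATAAA is the TATA box. GGGCGG is the GC box. CCAAT has no other name here. TGACG is part of the cAMP response element. CACGTG is the palindromic E box. Adjoining or overlapping matches run together.
Srsf2 (chr11:116853045-116853344, minus strand): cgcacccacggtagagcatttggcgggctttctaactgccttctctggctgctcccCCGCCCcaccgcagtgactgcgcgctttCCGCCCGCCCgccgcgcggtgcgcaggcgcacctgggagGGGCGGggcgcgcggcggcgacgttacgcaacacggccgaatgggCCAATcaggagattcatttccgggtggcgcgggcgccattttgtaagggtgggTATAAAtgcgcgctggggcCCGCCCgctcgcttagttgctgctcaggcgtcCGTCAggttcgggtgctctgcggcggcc
Srsf5 (chr12:80945249-80945548, plus strand): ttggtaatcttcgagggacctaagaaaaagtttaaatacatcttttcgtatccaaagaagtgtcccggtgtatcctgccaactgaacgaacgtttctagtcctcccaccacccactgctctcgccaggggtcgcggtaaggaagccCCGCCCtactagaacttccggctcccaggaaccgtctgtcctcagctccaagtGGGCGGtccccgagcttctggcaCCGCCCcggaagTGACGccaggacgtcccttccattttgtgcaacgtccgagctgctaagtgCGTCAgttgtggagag
Srsf6 (chr2:162931258-162931557, plus strand): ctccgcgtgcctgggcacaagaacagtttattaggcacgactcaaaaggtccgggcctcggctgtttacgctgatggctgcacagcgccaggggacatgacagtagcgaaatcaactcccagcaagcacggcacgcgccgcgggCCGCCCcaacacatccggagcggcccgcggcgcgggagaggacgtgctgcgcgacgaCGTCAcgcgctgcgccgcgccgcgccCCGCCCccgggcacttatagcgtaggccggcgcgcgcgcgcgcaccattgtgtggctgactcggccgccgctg
The Srsf2 window held 5 GC boxes and a TATA box beside 1 CCAAT and 1 TGACG match, and was 69.3% G and C. The Srsf5 and Srsf6 windows held neither a TATA box nor CCAAT. They had 3 and 2 GC boxes and 2 and 1 TGACG matches. These matches are a description of the letters and no evidence of binding.

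The hnRNP genes covered the widest range of the prefixes, from -1.39 to 1.56. Of 20, 3 were called higher (15%), 10 lower (50%) and 7 neither way, with a median ratio of -0.26. The shares of all tested genes were 24.5% higher and 46.1% lower. Hnrnpll, known from the splicing switch of the lymphocyte surface protein CD45, was 2.94-fold higher, the largest rise among all 49 genes. Hnrnpdl and Hnrnpc were both about 2-fold higher (2.08 and 2.05), and Hnrnpm, Hnrnpa0, Hnrnpu and Hnrnpf were 2.11-fold to 2.63-fold lower. With median centring, Hnrnpdl and Hnrnpc were at -0.07 and -0.06.

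Hnrnpll had levels of 11.30, 11.37 and 11.14 untreated and 12.96, 12.78 and 12.75 treated, on its only probe. All treated levels lay above all untreated ones. The ratio was 1.56 ± 0.087 (SE, n = 3; limma, adjusted p = 1.26e-06).

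Hnrnpc, whose product binds uridine tracts of nascent RNA, rose from 13.28, 13.05 and 13.16 to 14.18, 14.17 and 14.25. The groups did not overlap and both probes were called higher, at 1.03 and 1.48. The fitted ratio of the brighter one was 1.03 ± 0.086 (SE, n = 3; limma, adjusted p = 1.07e-05).

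Hnrnpdl, the hnRNP D-like protein gene, had levels of 12.37, 12.22 and 12.18 untreated and 13.27, 13.18 and 13.48 treated on its brightest probe. That probe gave 1.06 ± 0.10 (SE, n = 3; limma, adjusted p = 2.35e-05) with no overlap between the groups. Its other, dimmer probe went the opposite way, with ratios of -0.83, -0.68 and -1.12 and a called mean of -0.87. Averaged over both probes the gene was at 0.09 and not called, so its direction depends on the probe.

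Hnrnpm, linked in macrophages to the splicing of innate immune transcripts, fell from 12.25, 12.53 and 12.39 to 10.99, 10.73 and 11.28. The groups did not overlap, and replicate 2 again had the largest ratio (-1.80, against -1.27 and -1.12). The mean was -1.39 ± 0.13 (SE, n = 3; limma, adjusted p = 2.06e-05). Its dye coefficient of -0.30 was the largest of the 49 genes in size and had an adjusted p of 0.225 in limma.

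Hnrnpu, which encodes the nuclear matrix protein SAF-A, had levels of 10.76, 10.92 and 10.78 untreated and 9.52, 9.35 and 9.57 treated. The difference of -1.34 ± 0.098 exceeded the spread on either side (SE, n = 3; limma, adjusted p = 5.23e-06). Hnrnpf, a binder of guanine runs, fell on both probes, by 1.08 ± 0.081 on the log2 scale for the brighter (SE, n = 3; ratios of -1.02, -1.07 and -1.14; limma, adjusted p = 6.12e-06) and by 0.60 for the dimmer.

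Hnrnpa0, whose product binds AU-rich elements of inflammatory mRNAs, had ratios of -1.47, -1.13 and -1.51 on its brightest probe and a mean of -1.37 ± 0.099 (SE, n = 3; limma, adjusted p = 5.13e-06). The levels were 11.83, 11.68 and 11.79 untreated and 10.36, 10.56 and 10.28 treated, with no overlap. Its second probe did not show this fall: it gave 0.21, -0.15 and 0.30, a mean of 0.12 that was not called.

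Hnrnpa3 had the most probes, 7, and they did not move together. The 2 brightest gave -0.58 and -1.03 and 2 others gave -0.84 and -0.64, all called lower. A further probe was called higher at 0.90 (0.68, 0.70 and 1.34 on the arrays), and the last 2, at -0.22 and 0.07, were not called. Genes of this family have processed pseudogenes that a probe can also read, and probe sequences were not used here. Of 22 members with several kept probes, 3 (Hnrnpa0, Hnrnpa3 and Hnrnpdl) had probes over 1 log2 unit apart or called in opposite directions, 13.6%, against 18.1% of 3391 genes.

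**Figure D2:**
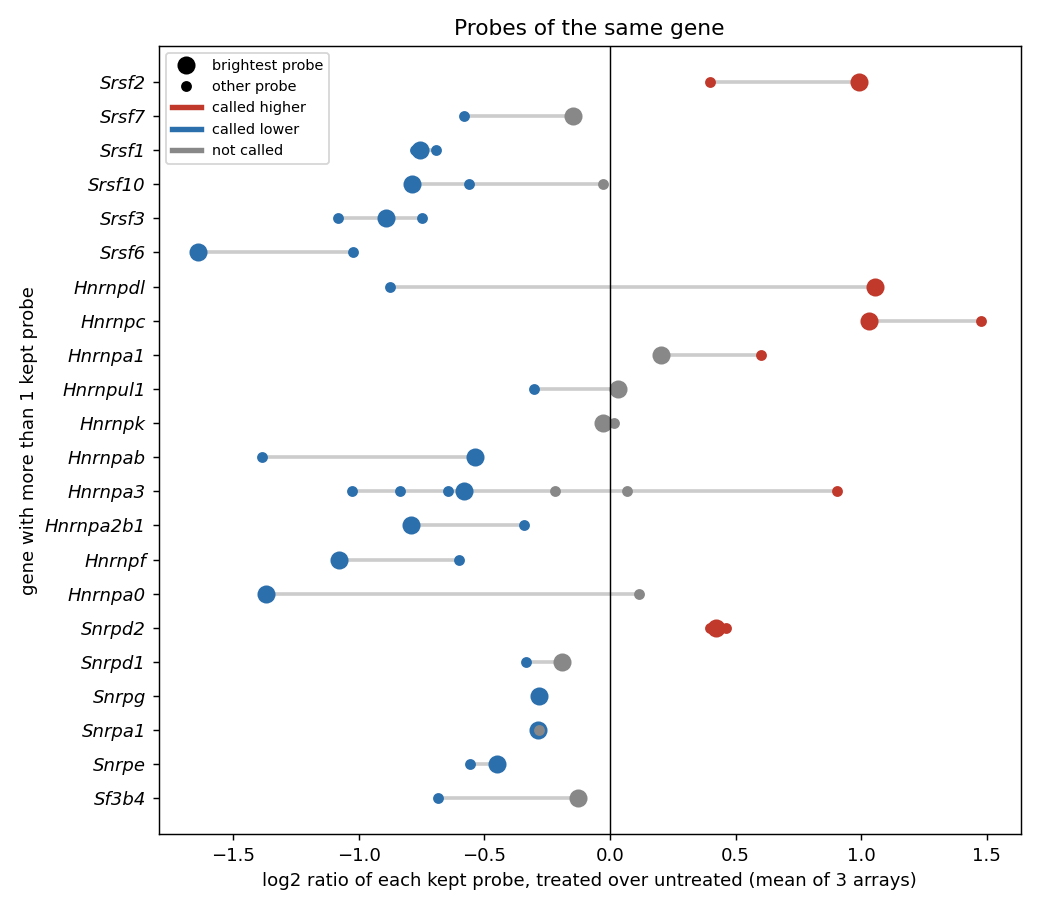
Log2 ratio (x axis) of each kept probe of the 22 genes with more than 1, coloured by its call over all kept probes, with a large symbol for the brightest probe. The Hnrnpdl probes stand at 1.06 and -0.87, those of Hnrnpa3 reach from -1.03 to 0.90, and the 3 Snrpd2 probes lie within 0.40 to 0.46. No gene was called in either direction once median centring replaced loess.

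Of the other hnRNP genes, Hnrnpul2 (-0.87), Hnrnpa2b1 (-0.79), Hnrnpr (-0.57), Hnrnpab (-0.54) and Hnrnph1 (-0.28) were called lower. Hnrnph1 was the weakest of these, with ratios of -0.39, -0.41 and -0.03 and overlapping groups. It lost its call without replicate 1 (-0.22), without replicate 2 (-0.21) and in 6 other alternatives, among them centring on the tested genes (-0.11, adjusted p = 0.38 in limma). The genes not called lay between -0.24 (Hnrnph2) and 0.21 (Hnrnpa1), with Hnrnpl (-0.19), Hnrnph3 (0.16) and Hnrnpd (0.15, encoding the mRNA decay factor AUF1) among them. Hnrnpk, the poly-cytidine binding member, was nearest to 0, with ratios of 0.13, -0.21 and -0.01. Hnrnpul1 was at 0.03, though its dimmer probe gave -0.30 and was called lower. The second probe of Hnrnpa1, the best known splicing repressor of the family, gave 0.60 and was called higher. The dimmer probe of Hnrnpab gave -1.39 and that of Hnrnpa2b1 -0.34, both called lower.

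The windows of Hnrnpc and Hnrnpm are given as the hnRNP genes with the largest rise and the largest fall among those with a window, other than Hnrnpdl with its opposed probes.
Hnrnpc (chr14:52103972-52104271, minus strand): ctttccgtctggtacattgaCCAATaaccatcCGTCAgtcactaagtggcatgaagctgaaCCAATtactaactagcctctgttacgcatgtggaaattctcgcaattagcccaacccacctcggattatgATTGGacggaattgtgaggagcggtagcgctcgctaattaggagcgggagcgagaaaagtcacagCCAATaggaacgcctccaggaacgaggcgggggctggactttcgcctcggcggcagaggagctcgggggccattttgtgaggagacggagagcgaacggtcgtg
Hnrnpm (chr17:33685409-33685708, minus strand): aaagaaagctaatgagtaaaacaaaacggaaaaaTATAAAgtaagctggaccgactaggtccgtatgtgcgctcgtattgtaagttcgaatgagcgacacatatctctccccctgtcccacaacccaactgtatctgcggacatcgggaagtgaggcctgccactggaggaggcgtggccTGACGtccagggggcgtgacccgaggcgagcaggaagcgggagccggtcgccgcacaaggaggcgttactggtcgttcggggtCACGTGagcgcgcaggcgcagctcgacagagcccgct
Hnrnpc had 4 CCAAT matches, 1 TGACG and no GC box. Hnrnpm had a TATA box, an E box and 1 TGACG.

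**Figure D3:**
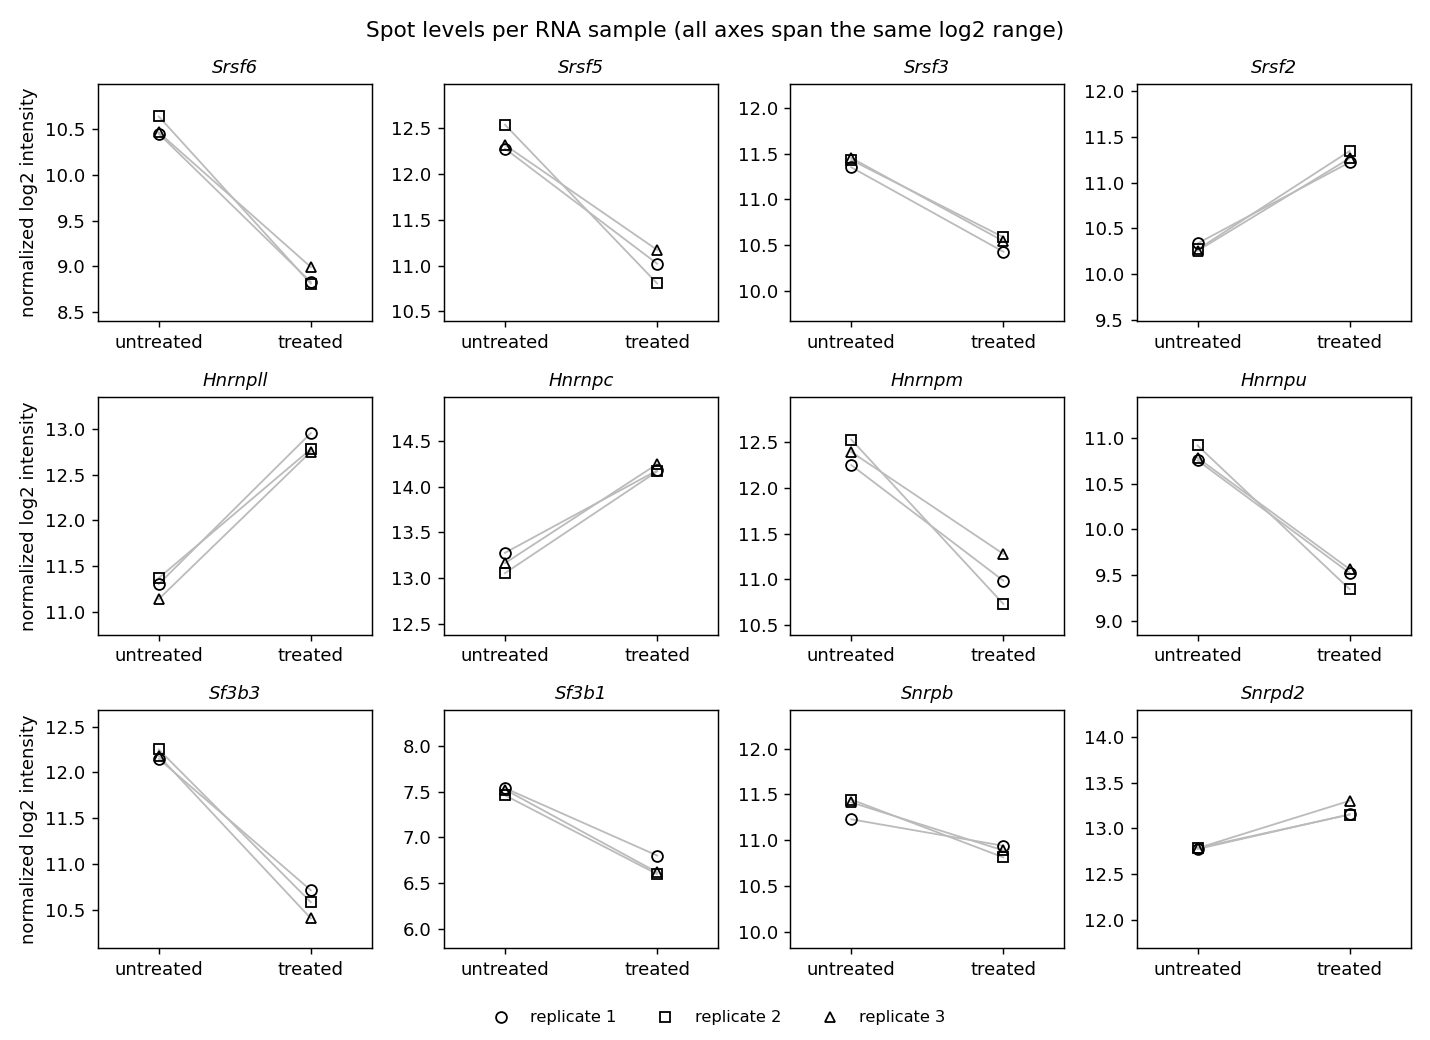
Normalized log2 intensity (y axis, the same span in every panel) of 12 genes in the untreated and treated RNA, with 1 symbol per replicate and a line joining the RNAs of an array. The 12 were chosen from the called genes, and in none do the treated values overlap the untreated ones. The same held for 33 of the 49 measured genes and for 9962 of all 13179. The steps of Snrpb and Snrpd2 are the smallest. The rises shown rest on loess, and that of Hnrnpll alone stayed above 0 with median centring.

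The snRNP protein genes covered the narrowest range. Of 11 measured, 5 were called lower (45.5%, against 46.1% of all tested genes) and 2 higher (18.2%, against 24.5%), none by 2-fold. Their median ratio was -0.22, with a range of -0.48 to 0.42. The 7 genes of the Sm ring did not share a direction: Snrpb, Snrpe and Snrpg were called lower, Snrpd2 and Snrpf higher, and Snrpd1 and Snrpd3 neither way. Among the Snrp genes alone, both of the U2 snRNP, Snrpb2 and Snrpa1, were called lower, and neither of the U1 snRNP, Snrpa or Snrpc, was called. The Sf3 genes and snRNP proteins under other symbols are not counted here.

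Snrpd2 had levels of 12.77, 12.79 and 12.78 untreated and 13.15, 13.15 and 13.30 treated. Its untreated values lay within 0.02 of each other, and its 3 probes gave 0.42, 0.46 and 0.40. The fitted ratio was 0.42 ± 0.083 (SE, n = 3; limma, adjusted p = 0.00179), but it turned to -0.70 with median centring. Snrpf, with ratios of 0.10, 0.38 and 0.21 (mean 0.23, adjusted p = 0.0439 in limma), had overlapping groups and lost its call when any array was left out.

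Snrpb, encoding the SmB protein, had levels of 11.23, 11.45 and 11.41 untreated and 10.94, 10.81 and 10.89 treated. These did not overlap, and the ratio was -0.48 ± 0.094 (SE, n = 3; limma, adjusted p = 0.00167). Snrpb2 had ratios of -0.48, -0.56 and -0.38 (mean -0.47 ± 0.083, SE, n = 3; limma, adjusted p = 0.000938). Snrpe had ratios of -0.47, -0.26 and -0.62 (mean -0.45 ± 0.095, SE, n = 3; limma, adjusted p = 0.00265), and its second probe gave -0.56.

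Snrpa1 was called at -0.29 ± 0.094 from ratios of -0.26, -0.12 and -0.48 (SE, n = 3; limma, adjusted p = 0.0232), and Snrpg at -0.28 (adjusted p = 0.0187 in limma). Snrpa1 lost its call without replicate 1 and without replicate 3, and Snrpg without replicate 1 and without replicate 2. Snrpd3 (-0.22), Snrpd1 (-0.19) and Snrpc (-0.08) were not called, although the treated and untreated levels of the first 2 did not overlap. The dimmer probe of Snrpd1 gave -0.34 and was called lower. Snrpa was nearest to 0, with ratios of 0.01, 0.20 and -0.27.

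The Sf3 genes held 1 called change of at least 2-fold, the fall of Sf3b3. Of 9 genes, 3 were called lower (33.3%), 1 higher (11.1%) and 5 neither way, with a median ratio of -0.22. The shares of all tested genes were 46.1% lower and 24.5% higher. All 3 falls were in SF3B, whose 6 genes under this prefix also gave 3 without a call. The rise was in SF3A, whose other 2 genes were not called. Phf5a, an SF3B gene under another symbol, is not counted here and was called lower (-0.40).

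Sf3b3 encodes a large propeller protein of SF3B. Its levels were 12.15, 12.25 and 12.18 untreated and 10.71, 10.58 and 10.41 treated. The treated values were all more than 1 log2 unit below the untreated ones. The ratios of -1.44, -1.67 and -1.78 gave -1.63 ± 0.093 (SE, n = 3; limma, adjusted p = 1.4e-06), a 3.09-fold lower level.

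Sf3b1, the scaffold of the complex, had levels of 7.54, 7.46 and 7.52 untreated and 6.80, 6.60 and 6.62 treated, near the dim end of the array. It passed with 5 of 6 readings well above background. Its ratio was -0.83 ± 0.083 (SE, n = 3; limma, adjusted p = 3.08e-05), and its size moved with the processing. It was -1.59 with a normexp offset of 0, -1.97 for the scanner's own ratio and -0.66 after centring on the tested genes. Sf3b5, a small subunit, had ratios of -0.21, -0.32 and -0.32 (mean -0.29 ± 0.081, SE, n = 3; limma, adjusted p = 0.0122) and lost its call without replicate 3 (-0.27).

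Sf3a1, the subunit of SF3A that also touches the U1 snRNP, had levels of 10.31, 10.27 and 10.30 untreated and 11.01, 10.997 and 10.71 treated. The groups did not overlap, and the ratio was 0.61 ± 0.093 (SE, n = 3; limma, adjusted p = 0.00042), or -0.57 with median centring. Sf3b4 was nearest to 0, with ratios of -0.05, -0.34 and 0.01, though its dimmer probe gave -0.68 and was called lower. Sf3b6 (-0.25), which lies next to the branch point adenosine, Sf3a3 (-0.22), Sf3b2 (-0.20) and Sf3a2 (0.17) were not called.

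The window of Sf3b3, the largest fall of this group, is given with the same motifs in capitals.
Sf3b3 (chr8:110846754-110847053, minus strand): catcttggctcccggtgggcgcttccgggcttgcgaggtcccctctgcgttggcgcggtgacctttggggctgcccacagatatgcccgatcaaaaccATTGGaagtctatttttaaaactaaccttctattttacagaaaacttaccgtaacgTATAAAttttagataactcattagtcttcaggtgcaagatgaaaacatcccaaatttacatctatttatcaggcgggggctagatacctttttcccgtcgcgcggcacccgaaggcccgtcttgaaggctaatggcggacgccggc
It held a TATA box and 1 CCAAT but neither a GC box nor TGACG. RefSeq windows were found for 43 of the 49 measured genes, 56 windows in all, and not for Hnrnpll, Hnrnpul2, Sf3b4, Sf3b5, Snrpb and Snrpd1. The members' windows had a median G and C content of 61.0%, against 52.7% for all 32851 windows of that length. Those windows belong to 27025 genes, also ones not measured in these cells. The windows of the tested genes alone were not counted, so a trait of measured genes in general cannot be told apart. The GC box was in 71.4% of the members' windows (35.7% of all), TGACG in 48.2% (20.8%), CCAAT in 48.2% (37.4%), CACGTG in 12.5% (7.15%) and TATAAA in 6 of the 56 (13.6%). Split by call into genes that were lower (30 windows), higher (9) and neither (17), the GC box was in 73.3%, 77.8% and 64.7%, TGACG in 63.3%, 33.3% and 29.4%, and CCAAT in 53.3%, 33.3% and 47.1%. CACGTG was in 3, 0 and 4 of these windows and TATAAA in 4, 1 and 1. The motifs were chosen with the calls known, windows of a gene can overlap, and this split has no test.

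Other genes of the pathway were read through 8 lists holding 191 genes, 187 of them measured (Ddx46, Srrm4, Khdrbs3 and Magoh were not). Of the 187, 43 were called higher (23.0%) and 100 lower (53.5%), with a median ratio of -0.31, against 24.5% and 46.1% of all genes. By list, the share called higher ran from 0% (snRNP assembly) to 40% (SR protein kinases and importer). The share called lower ran from 42.9% (SR-related proteins) to 81.2% (snRNP assembly). With median centring none was called, and of the 21 listed genes with the largest called rises (up to 3 a list, named below; the other risers were not run singly), the 6 that stayed above 0 were Clk4 (1.21), Dyrk1a (0.69), Snrnp48 (0.23), Syf2 (0.18), Prpf39 (0.02) and Ptbp2 (0.0017).

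The kinases that phosphorylate SR proteins, listed with their nuclear importer, moved in both directions. Of 10 genes, 4 were called higher and 5 lower. The dual-specificity kinase genes Clk4, Dyrk1a and Clk1 gave 2.38 ± 0.10, 1.86 ± 0.094 and 1.07 ± 0.080 (SE, n = 3), the largest rises of the list. On the arrays Clk4 had ratios of 2.26, 2.63 and 2.25. The kinase Prpf4b (-1.18), the SR protein kinase Srpk2 (-0.79) and the importer Tnpo3 (-0.74) fell most.

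Of 16 genes that assemble snRNPs, 13 were called lower (81.2%, against 46.1% of all tested genes) and 3 neither way. The median was -0.59, against -0.17 for all tested genes, with no test of either difference. The SMN complex members Gemin4 (-1.53 ± 0.080) and Gemin6 (-1.37 ± 0.10) and the Sm-methylating partner Wdr77 (-1.47 ± 0.087; SE, n = 3 each) fell most. The median of this list was thus further below 0 than that of all measured Snrp genes (-0.22), a difference with no test. Other settings called up to 2 genes of the list higher.

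**Figure D4:**
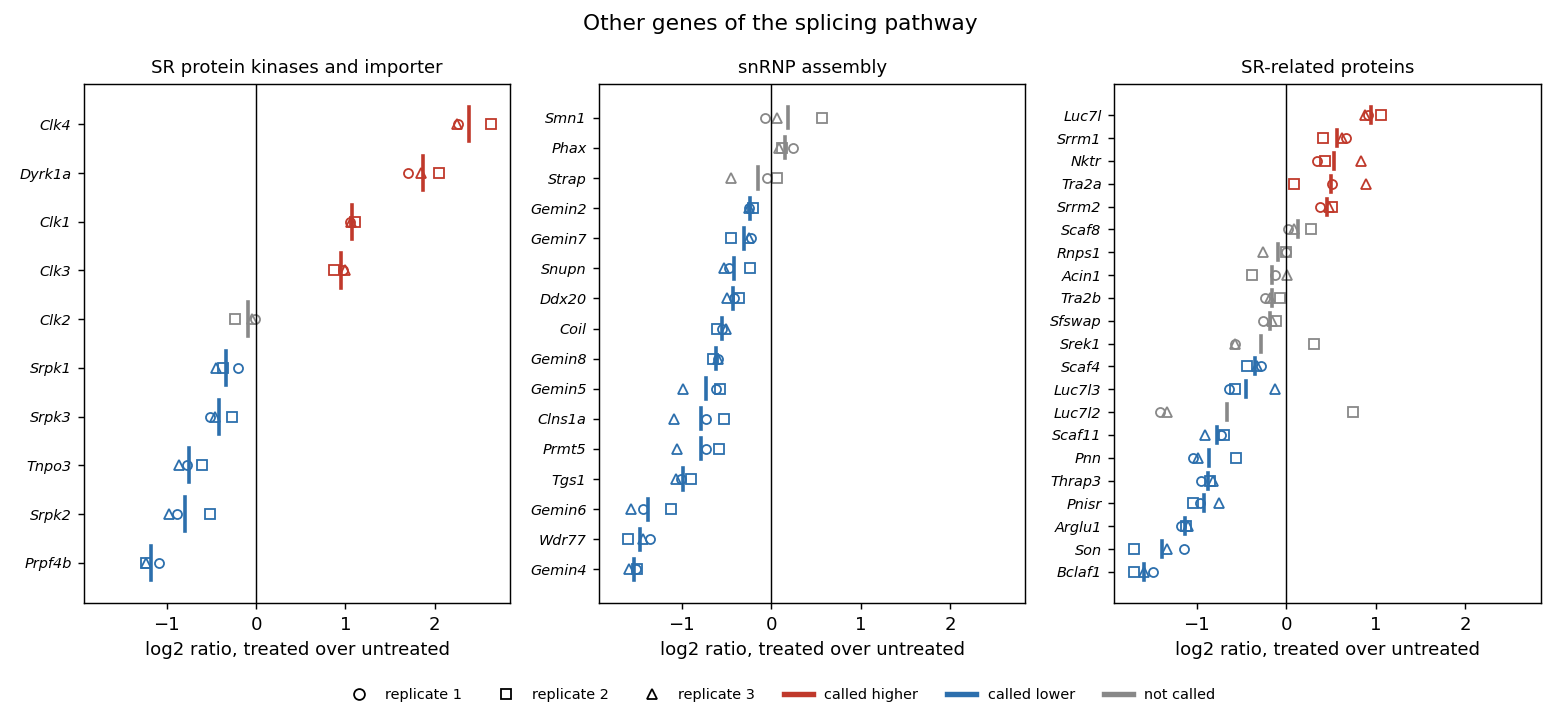
Log2 ratio (x axis) per array of the genes in 3 of the 8 lists, with a bar at the mean coloured by call. Clk4 (2.38), Dyrk1a and Clk1 lie at the top of the first panel and Prpf4b (-1.18) at the bottom. Of 16 snRNP assembly genes, 13 were called lower (81.2%, against 46.1% of all tested genes). With median centring no gene was called and Clk1 turned to -0.10.

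Among 21 SR-related genes, 5 were called higher and 9 lower. Luc7l (0.95), a partner of the U1 snRNP, Srrm1 (0.57) and Nktr (0.54) rose most, while Bclaf1 (-1.60), Son (-1.39), a core protein of nuclear speckles, and Arglu1 (-1.13) fell most. Of 33 snRNP proteins under other symbols, 10 were called higher and 15 lower. Snrnp48 (1.38), Prpf38b (1.04) and Snrnp35 (0.84) rose most. The helicase Snrnp200 (-1.17), the central scaffold Prpf8 (-1.09) and Snu13 (-1.01) fell most.

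Among 34 genes of the catalytic spliceosome and the Prp19 complex, 10 were called higher and 18 lower. Syf2 (1.35), Prpf39 (1.03) and Cwc15 (0.98) were the highest, and the splicing factor Slu7 (-1.48), the helicase Aqr (-1.33) and Ppil1 (-1.16) the lowest. Of 15 factors of the 3′ splice site and branch point, 3 were called higher and 9 lower. Zrsr1 (0.52), Smndc1 (0.34) and Zrsr2 (0.31) were the highest, and Cherp (-0.84), U2surp (-0.62) and Sugp1 (-0.57) the lowest. Smndc1 lost its call without replicate 1 and without replicate 2, and Zrsr2 without replicate 2 and without replicate 3.

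Other RNA-binding splicing regulators gave 7 higher and 22 lower calls among 43 genes. Celf2 (-2.79 ± 0.091), Sfpq (-2.13 ± 0.095) and the cold-inducible Cirbp (-1.74 ± 0.088; SE, n = 3 each) fell further than any Srsf, Hnrnp, Snrp or Sf3 gene did. Ptbp2 (0.60), Khsrp (0.57) and Mbnl2 (0.51) rose most. Of 15 exon junction and export factors, 4 were called higher and 9 lower, with Nxt1 (1.04), Thoc2 (0.61) and Rbm8a (0.39) at the top and Thoc5 (-0.996), Alyref (-0.77) and Ddx39a (-0.60) at the bottom. Averaged over probes, Khsrp, Nktr and Thoc2 lost their calls (0.22, 0.29 and 0.04).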

How the data were processed

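Total RNA of treated and untreated macrophages was compared on 3 arrays. Per the file headers, arrays were quantified with Agilent Feature Extraction 10.7.3.1, as the submitters' processing notes also state. The deposited intensity columns hold, per the file headers, median spot and background brightness without normalization, and the deposited log10 ratio is Cy5 over Cy3 after the scanner's background and dye correction. The authors' log2 table is already turned to treated over untreated, since it correlated at r = 0.99 with loess ratios turned that way (medians near 0, slopes 1.04 to 1.07). How its values were made was not given in the labels or headers. Outlier and well-above-background flags came from the deposited files.

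Here intensities were corrected with normexp (offset 50) and loess in limma 3.58.1 (R 4.3.3), giving control spots no weight and leaving outlier spots out. Levels per RNA are these values after Aquantile scaling between arrays. Probes well above background in at least 3 of 6 readings were kept, and 27235 probes had a symbol (RefSeq, GRCm38.p6). A gene is shown by its brightest probe, and each ratio was tested against 0 with lmFit and eBayes. The fit was tested on simulated data, and alternatives to each step are in the closing section.

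The members and lists were chosen with earlier results of these data known. Values are given for up to 4 called rises and 4 called falls per prefix and the member nearest to 0, for members whose probes part, and for up to 3 genes per direction in each other list. Phf5a is named as well, as an SF3B gene.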

Additional observations from a re-analysis of the deposited data

How the results depend on the processing

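Outside median centring, 24 of the 32 called members kept their call in each of the other 14 alternatives that measured them (Sf3b1 was dropped when all 6 readings had to be well above background). With median centring in place of loess no member was called higher or lower (0 of each, also in each prefix group), 20 members had an unadjusted p under 0.05, and the medians were -1.83 (Srsf), -1.43 (Hnrnp), -1.39 (Snrp) and -1.33 (Sf3). That setting turned 7 members, Hnrnpc (-0.064), Hnrnpdl (-0.074), Sf3a1 (-0.57), Snrpd2 (-0.70), Snrpf (-0.94), Srsf2 (-0.19) and Srsf4 (-0.95), and 15 of the 45 listed genes run singly, Clk1 (-0.10), Cwc15 (-0.12), Khsrp (-0.53), Luc7l (-0.17), Mbnl2 (-0.62), Nktr (-0.64), Nxt1 (-0.13), Prpf38b (-0.11), Rbm8a (-0.79), Smndc1 (-0.46), Snrnp35 (-0.33), Srrm1 (-0.56), Thoc2 (-0.28), Zrsr1 (-0.65) and Zrsr2 (-0.70). The cause was not tested.

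Centred on the tested genes, which moves the median of all genes to 0.0018, 12 members were called higher and 19 lower (6 Hnrnp and 2 Sf3 higher, 3 Snrp lower), with medians of -0.59 (Srsf), -0.086 (Hnrnp), -0.046 (Snrp) and -0.051 (Sf3). With a normexp offset of 0, 5 Hnrnp were higher and 3 Snrp lower (medians -0.66, -0.15, -0.11 and -0.14 in that order). With no background correction 5 Hnrnp were higher (medians -0.22 for Hnrnp and -0.18 for Snrp), with the scanner's ratio 5 Hnrnp higher and 3 Snrp lower (-0.72 for Srsf, -0.20 for Hnrnp and -0.17 for Snrp), and 5 Hnrnp were higher in the authors' table (-0.20 for Hnrnp and -0.16 for Snrp). Averaging probes gave 6 Sf3 lower and medians of -0.46 (Srsf) and -0.26 (Snrp). Array weights gave 5 Sf3 lower, 1 Snrp higher and medians of -0.70 (Srsf) and -0.29 (Hnrnp). Separate channels gave 1 Snrp higher. Without the filter the Srsf median was -0.55.

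Leaving out 1 array gave 6 to 7 members higher and 21 to 25 lower. Each time only 1 Srsf and 1 Snrp gene were called higher, with 3 to 4 Snrp and 2 to 5 Sf3 lower. The medians were -0.77 to -0.62 (Srsf), -0.30 to -0.21 (Hnrnp) and -0.27 to -0.19 (Snrp). Calls lost elsewhere were those of Hnrnph1, Snrpa1, Snrpf, Snrpg, Srsf4, Srsf9, Sf3b5 and Hnrnpdl. All arrays lay on 1 slide, so no slide block was run. The other lists were run under the same alternatives, a choice made after seeing the data. Dim probes such as that of Sf3b1 limit how well a fold size is known.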
